A study of Homo sapiens with 9 samples.

Results

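The mevalonate pathway to squalene was followed here through 9 genes, ACAT2, HMGCS1, MVK, PMVK, MVD, IDI1, FDPS, GGPS1 and FDFT1, chosen by enzyme name from the 78894 genes of the deposited tables. All 9 were found and passed the filter on low counts, which kept 16908 genes. Messenger RNA was sequenced from Hap1 cells, a near-haploid human line that derives from a chronic myeloid leukaemia line. Every group carried a deletion of the endogenous SARS2 gene, which encodes the mitochondrial seryl-tRNA synthetase, and a doxycycline-inducible FLAG-tagged SARS2 copy. Cells had been without doxycycline for 6 days. The groups differed in a second, myc-tagged SARS2 copy, which was wild type (WT), R227Q or H448L and carries the tag int14 in its label, a term the labels do not explain. Each group had 3 libraries. The labels say neither whether each line was 1 clone nor whether the libraries came from separate cultures, so p-values measure the spread between libraries, which may be technical. The column names of WT replicates 1 and 2 and R227Q replicate 1 begin with SDKYMR. Those of the other 6 libraries, all H448L libraries among them, begin with 4LJFHN. These prefixes are called submissions here, a name the column names themselves do not give.

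The pathway builds isoprenoids from acetyl-CoA. ACAT2 and HMGCS1 condense acetyl-CoA units toward mevalonate, MVK and PMVK phosphorylate mevalonate, and MVD decarboxylates the product to isopentenyl diphosphate. IDI1 isomerises that unit, and FDPS joins such units into farnesyl diphosphate, from which GGPS1 makes geranylgeranyl diphosphate and FDFT1 makes squalene, the first product committed to sterols. Many genes of the pathway are known targets of the transcription factor SREBP-2, which is released from the endoplasmic reticulum when sterols are low and acts at promoters together with NF-Y, a factor that binds CCAAT boxes, and Sp1, which binds GC boxes.

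Total counts ran from 9900892 to 12991050 per library, so that 1 count was worth 0.0770 to 0.101 CPM (the count scaled to the library's total), and the members had from 202 to 5118 counts in a library. SARS2 itself stood at 6.20 to 8.54 CPM in WT, 7.09 to 8.68 in R227Q and 7.88 to 8.68 in H448L, and did not pass the test against WT in either variant (edgeR adjusted p = 0.38 and 0.29). This count is per gene and does not tell the FLAG-tagged and myc-tagged copies apart. SARS2 also shares 1492 exonic bases with AC011455.2 on the same strand and 349 with MRPS12 on the opposite strand. Summed haematopoietic markers ran from 5.10 to 17.9 CPM in WT, 5.78 to 17.4 in R227Q and 16.4 to 22.8 in H448L. Fibroblast markers ran from 19.6 to 56.2, 25.5 to 68.7 and 58.1 to 70.1 CPM in the same order. Both sums moved with the submission, the haematopoietic one through HBG1, a fetal globin. HBG1 was at 0 in the 3 SDKYMR libraries and at 13.0 to 19.9 CPM in the others. Other haematopoietic markers went the opposite way. LCP1 was at 3.18 to 4.39 CPM in SDKYMR and 0.533 to 1.29 in 4LJFHN libraries. PTPRC, the pan-leukocyte CD45 gene, was at 0.544 to 0.693 and at 0 to 0.303 CPM. Epithelial markers summed to 82.0 to 85.0 CPM in WT, 87.9 to 97.3 in R227Q and 82.4 to 93.3 in H448L, and hepatocyte markers to 1.07 to 2.67 CPM, with 1 of 7 at 0 in every library. In H448L, 0 of 4 tested epithelial and 0 of 4 tested fibroblast markers passed, where 4.99% of all genes were called lower and 2.97% higher. In R227Q, 1 of 4 tested epithelial and 2 of 4 tested fibroblast markers rose, where 7.5% of all genes were called higher. They were KRT18, COL1A1 and THY1 (log2 0.15, 0.29 and 0.86, edgeR adjusted p = 0.044, 0.0047 and 0.040), chosen for mention after their values were seen. Other tested markers stood the other way and did not pass, COL1A2 at -0.24, COL3A1 at -0.34 and EPCAM at -0.34 (adjusted p = 0.50, 0.51 and 0.60), and the median of the fibroblast markers was 0.03. The COL1A1 call was lost without WT replicate 3 (0.26), that of KRT18 when any 1 WT or R227Q library was left out, and that of THY1 likewise except for R227Q replicate 2. Their part in the results below was not tested.

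The DNA just upstream of an annotated transcript start of these genes is shown so that its boxes can be set beside the members' values. In RefSeq's GRCh38.p14 table, 7 of the 9 members had a promoter entry, and the 250 bases before the start were searched on both strands. HMGCS1 had 2 entries and IDI1 and GGPS1 had 3 each. For these only the entry nearest the gene's start in GENCODE v29 was searched, so other starts may differ. The box CCAAT, which reads ATTGG when it lies on the other strand, occurred in 5 of 7 members, HMGCS1, MVK, MVD, IDI1 and FDPS, each of which held at least 2 copies. In all 35116 windows of the same length, 32.0% held CCAAT and 9.53% held at least 2 copies. PMVK and GGPS1 held none in the entry searched. The GC box GGGCGG, which reads CCGCCC when it lies on the other strand, occurred in 6 of 7 members, all but GGPS1, and in 42.6% of windows. A sterol regulatory element spelled TCACNCCAC occurred in 0 of 7 members and in 0.883% of windows, which says only that these letters are not in these windows. No CCAAT box overlapped a GC box in the members' windows. The stretches below lie outside the exons that GENCODE v29 gives for the same gene, while exons of other genes were not screened. The MVK stretch lies within the annotated span of MVK, which begins at chr12:109573255. All stretches are written 5′ to 3′ on the gene's strand, with CCAAT and GC boxes of either strand in capitals. They are chr5:43313513-43313662 (minus strand) for HMGCS1, chr12:109573572-109573792 (plus) for MVK, chr16:88663162-88663341 (minus) for MVD, chr10:1049171-1049369 (minus) for IDI1 and chr1:235326966-235327215 (plus) for GGPS1.
HMGCS1: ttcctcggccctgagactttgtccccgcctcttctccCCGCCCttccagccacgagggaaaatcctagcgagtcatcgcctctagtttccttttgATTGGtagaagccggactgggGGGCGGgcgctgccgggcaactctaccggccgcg
MVK: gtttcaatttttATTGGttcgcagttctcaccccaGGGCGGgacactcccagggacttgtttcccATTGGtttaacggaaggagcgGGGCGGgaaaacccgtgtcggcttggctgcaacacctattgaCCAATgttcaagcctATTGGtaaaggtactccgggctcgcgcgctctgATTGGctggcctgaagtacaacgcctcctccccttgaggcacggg
MVD: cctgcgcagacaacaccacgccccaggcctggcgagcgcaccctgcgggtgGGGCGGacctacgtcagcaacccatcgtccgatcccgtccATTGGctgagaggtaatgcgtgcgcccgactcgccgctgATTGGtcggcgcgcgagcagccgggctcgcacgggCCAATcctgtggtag
IDI1: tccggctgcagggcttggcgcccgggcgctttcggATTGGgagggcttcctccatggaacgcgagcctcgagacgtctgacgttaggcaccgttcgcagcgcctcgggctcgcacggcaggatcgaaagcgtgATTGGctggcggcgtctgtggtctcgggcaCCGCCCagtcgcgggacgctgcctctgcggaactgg
GGPS1: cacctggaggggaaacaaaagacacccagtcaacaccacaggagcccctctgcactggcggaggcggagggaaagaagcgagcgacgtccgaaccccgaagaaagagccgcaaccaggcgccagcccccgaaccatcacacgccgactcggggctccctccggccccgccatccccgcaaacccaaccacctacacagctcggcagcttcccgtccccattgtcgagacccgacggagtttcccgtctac
MVK had 5 CCAAT boxes, MVD 3 and IDI1 2, all within the stretches shown, HMGCS1 had 1 there and another nearer the start, and the GGPS1 stretch is in lower case throughout. A match of letters is a description and not a binding site.

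**Figure D1:**
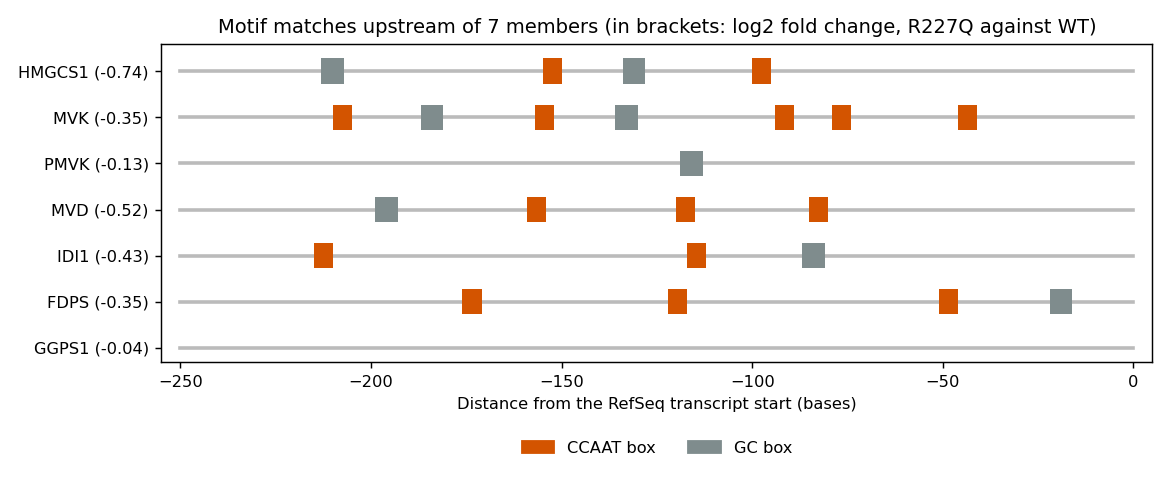
Positions of CCAAT boxes (orange) and GC boxes (grey) in the 250 bases before the RefSeq start of the 7 members with a promoter entry, by distance from the start in bases, with the log2 fold change of R227Q against WT in brackets. CCAAT boxes stand in 5 members and in neither PMVK nor GGPS1, in the entry searched for each.

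In R227Q cells 7 of the 9 genes fell against WT and 0 rose, and the members' median log2 fold change was -0.35 against 0.00 over all genes tested. Over all genes, 9.91% were called lower, 7.5% higher and 17.4% in either direction, by edgeR's quasi-likelihood test with the submission as a term and Benjamini-Hochberg adjustment over 16908 genes. In H448L cells 7 of 9 also fell and 0 rose, with a median of -0.34 against 0.01, where 4.99% of all genes were called lower, 2.97% higher and 7.97% in either direction. Without WT replicate 3, the only WT library in the submission of the H448L libraries, 2 of 9 were called lower in H448L, HMGCS1 and FDFT1. Both comparisons use the same 3 WT libraries, so their values are given side by side and not as independent of each other. No member was higher at an unadjusted p under 0.05 in either comparison, and DESeq2 and limma-voom each called 7 members in both. The 9 genes summed to 1074 to 1109 CPM in WT, 793 to 848 in R227Q and 830 to 861 in H448L libraries. In bulk RNA, fewer cells of a type and less RNA per cell cannot be told apart.

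**Figure D2:**
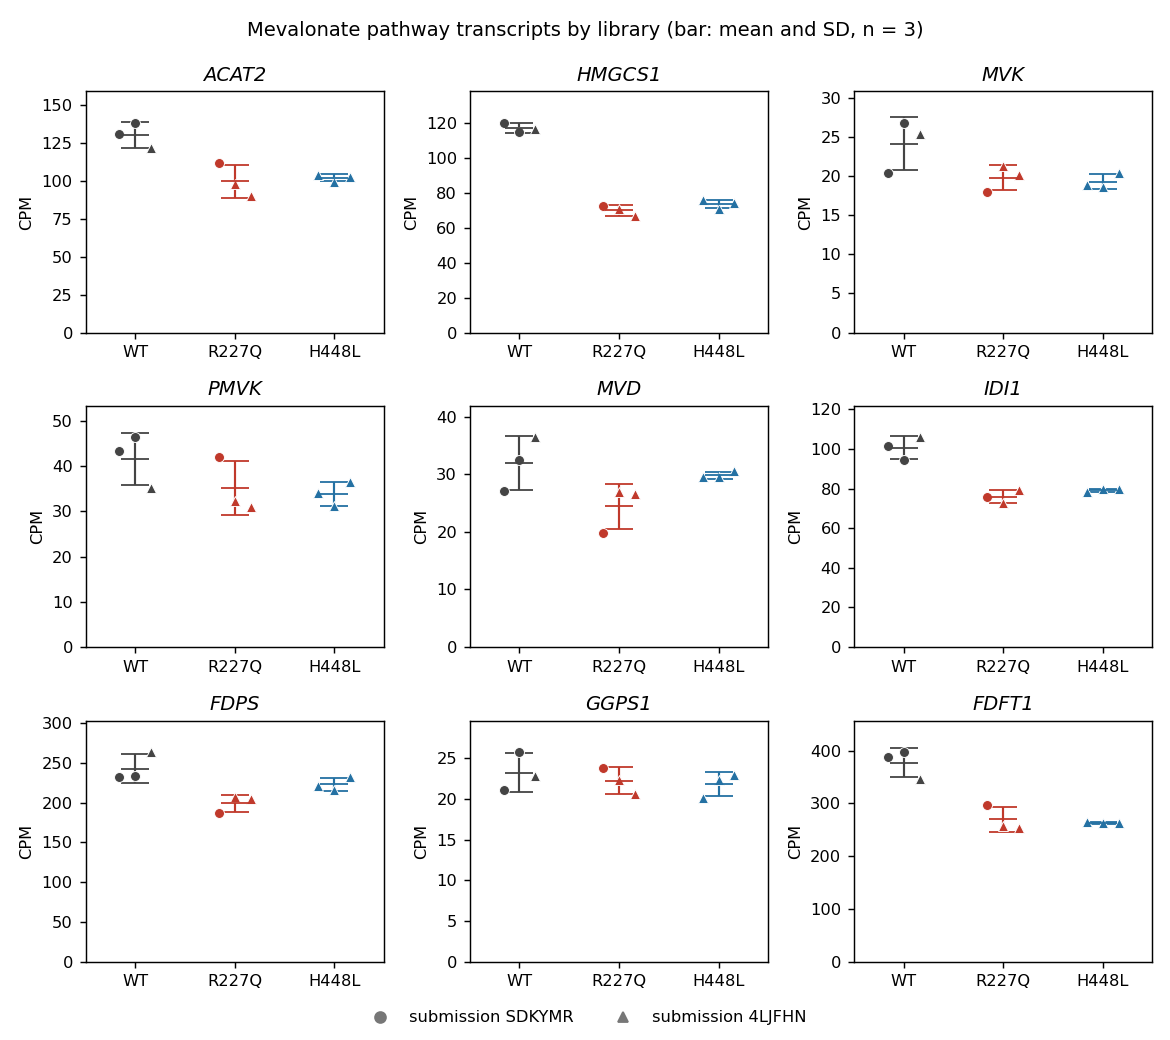
CPM of each member in each of the 9 libraries, by SARS2 genotype, with the marker shape giving the submission and bars the group mean and SD. The WT libraries of HMGCS1 sit at 115 to 120.2 CPM and all 6 variant libraries at 66.6 to 75.9, while the groups of GGPS1 overlap.

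The genes of the first condensations were both lower, HMGCS1 more than any other member. HMGCS1, the cytosolic HMG-CoA synthase (ENSG00000112972, chr5:43289395-43313512, minus strand), stood at 120.2, 115 and 117 CPM in WT replicates 1 to 3. It stood at 72.5, 71.0 and 66.6 in R227Q, and at 75.9, 70.9 and 74.3 in H448L. All 6 variant libraries lay below every WT library. The log2 fold change was -0.74 ± 0.05 (SE) in R227Q (edgeR adjusted p = 1.5e-11), a 1.67-fold lower level, and -0.66 ± 0.06 in H448L (1.6e-08), 1.58-fold lower. ACAT2, the cytosolic acetoacetyl-CoA thiolase (ENSG00000120437, chr6:159760328-159779055, plus strand), stood at 131, 138 and 121 CPM in WT, at 111, 97.8 and 90.0 in R227Q and at 104, 99.4 and 102 in H448L. The groups of each variant and WT did not overlap, and the spread was widest in R227Q, where the SDKYMR library was the highest. ACAT2 fell by 0.33 ± 0.05 on the log2 scale in R227Q (edgeR adjusted p = 9.4e-06) and by 0.24 ± 0.06 in H448L (0.0063). Without WT replicate 3, the only WT library of the 4LJFHN submission, the H448L value of ACAT2 was -0.17 and was no longer called (adjusted p = 0.39). On the opposite strand ACAT2 shares 1458 exonic bases with SOD2-OT1, at a mean of 1.11 CPM, 1141 with an entry for SOD2 (ENSG00000285441) that has no value here, and 397 with TCP1. SOD2 was counted under another identifier, ENSG00000291237, and stood at 0.05 in R227Q (edgeR adjusted p = 0.70) and -0.07 in H448L (0.64). TCP1, a chaperonin subunit gene with a mean of 418 CPM, itself fell by 0.14 in R227Q (edgeR adjusted p = 0.0062, lost without WT replicate 3 or R227Q replicate 1). No source used here says whether counting used strand, so reads of these stretches cannot be assigned with certainty.

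Of the 3 genes that turn mevalonate into isopentenyl diphosphate, MVK and MVD were called lower in both variants and PMVK in neither. Whether PMVK differed from the other genes in its change was not tested. MVK, mevalonate kinase (ENSG00000110921, chr12:109573255-109598117, plus strand), stood at 20.3, 26.8 and 25.3 CPM in WT, at 18.0, 21.2 and 20.2 in R227Q and at 18.8, 18.6 and 20.4 in H448L. WT replicate 1 lay within the range of the variant libraries. MVK fell by 0.35 ± 0.09 on the log2 scale in R227Q (edgeR adjusted p = 0.0070) and by 0.45 ± 0.11 in H448L (0.0080). This is the member with the fewest counts, and its R227Q call was lost without WT replicate 3 (-0.40, adjusted p = 0.069) and without R227Q replicate 1 (-0.30, 0.16), its H448L call without WT replicate 3 (-0.51, 0.14) and without R227Q replicate 1 (-0.42, 0.051). MVK shares 306 exonic bases with MMAB, a cobalamin adenosyltransferase gene on the opposite strand, which stood at -0.22 in both variants (edgeR adjusted p = 0.028 in R227Q, lost without WT replicate 3, R227Q replicate 1 or R227Q replicate 3, and 0.087 in H448L, called without R227Q replicate 3).

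MVD, the diphosphomevalonate decarboxylase (ENSG00000167508, chr16:88651935-88663161, minus strand), stood at 27.0, 32.5 and 36.4 CPM in WT. In R227Q it stood at 19.9, 26.9 and 26.5, with every library below the lowest WT value, and in H448L at 29.5, 29.4 and 30.5, within the WT range. All 3 H448L libraries came from the 4LJFHN submission, in which the WT library stood at 36.4. The fall was 0.52 ± 0.08 on the log2 scale in R227Q (edgeR adjusted p = 1.2e-05) and 0.34 ± 0.09 in H448L (0.010). The H448L call was lost without WT replicate 3 (-0.445, 0.12) and without R227Q replicate 1 (-0.31, 0.067). PMVK, phosphomevalonate kinase (ENSG00000163344, chr1:154924734-154936991, minus strand), did not pass the test. It stood at 43.3, 46.4 and 35.3 CPM in WT, at 42.0, 32.4 and 31.0 in R227Q and at 34.0, 31.2 and 36.5 in H448L, with all groups overlapping. Its log2 fold change was -0.13 in R227Q (95% confidence interval -0.26 to 0.003, edgeR adjusted p = 0.18) and -0.06 in H448L (-0.22 to 0.10, 0.73).

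IDI1, the isopentenyl diphosphate isomerase (ENSG00000067064, chr10:1039152-1049170, minus strand), stood at 101, 94.3 and 106 CPM in WT, at 75.7, 72.8 and 79.4 in R227Q and at 78.4, 79.6 and 79.7 in H448L. The lowest WT library stood above every variant library. IDI1 fell by 0.43 ± 0.05 on the log2 scale in R227Q (edgeR adjusted p = 3.9e-07) and by 0.41 ± 0.06 in H448L (3.7e-05). The H448L call was lost without WT replicate 3 (-0.34, 0.064). FDPS, farnesyl diphosphate synthase (ENSG00000160752, chr1:155308748-155320666, plus strand), stood at 232, 233 and 263 CPM in WT, at 187, 206 and 204 in R227Q and at 221, 216 and 232 in H448L. The highest H448L library lay just below the lowest WT library, and the R227Q libraries lay lower. FDPS fell by 0.35 ± 0.04 on the log2 scale in R227Q (edgeR adjusted p = 2.8e-07) and by 0.25 ± 0.05 in H448L (0.00075). Without WT replicate 3 the H448L value was -0.22 and was not called (0.15). FDPS has 8 named pseudogenes, of which 6 had a count and which summed to at most 0.444 CPM in a library, while its own deposited counts were whole numbers in 22.2% of libraries.

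At the branch after farnesyl diphosphate, FDFT1 of the sterol arm was lower and GGPS1 of the geranylgeranyl arm did not pass the test. Whether these genes differed in their change was not tested. FDFT1, squalene synthase (ENSG00000079459, chr8:11795573-11839309, plus strand), stood at 388, 397 and 347 CPM in WT, at 298, 258 and 254 in R227Q and at 265, 262 and 262 in H448L. No variant library reached the lowest WT library. FDFT1 fell by 0.43 ± 0.04 on the log2 scale in R227Q (edgeR adjusted p = 2.5e-09), 1.35-fold lower, and by 0.41 ± 0.04 in H448L (5.5e-07), 1.32-fold lower. GGPS1, geranylgeranyl diphosphate synthase (ENSG00000152904, chr1:235327350-235344532, plus strand), stood at 21.1, 25.8 and 22.9 CPM in WT, at 23.9, 22.3 and 20.6 in R227Q and at 20.1, 22.4 and 22.9 in H448L. The 3 groups covered nearly the same range. Its log2 fold change was -0.04 in R227Q (95% confidence interval -0.21 to 0.13, edgeR adjusted p = 0.80) and -0.05 in H448L (-0.26 to 0.16, 0.83). GGPS1 shares 1422 exonic bases with TBCE (ENSG00000285053), a tubulin chaperone gene on the same strand, so that the split of reads between them is uncertain. The TBCE entry tested here has another identifier, ENSG00000284770. It stood at 0.25 in R227Q (edgeR adjusted p = 0.047) and at 0.15 in H448L (0.45). Its R227Q call was lost in every fit that left out a WT or R227Q library.

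The CPM of 6 of 9 members did not overlap between R227Q and WT, all lower, against 8.11% of all genes tested. Between H448L and WT 5 of 9 members did not overlap, all lower, against 11.9%. HMGCS1 and FDFT1 kept their calls in both variants in all 19 alternative analyses, and IDI1 and FDPS kept theirs in R227Q in all 19.

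**Figure D3:**
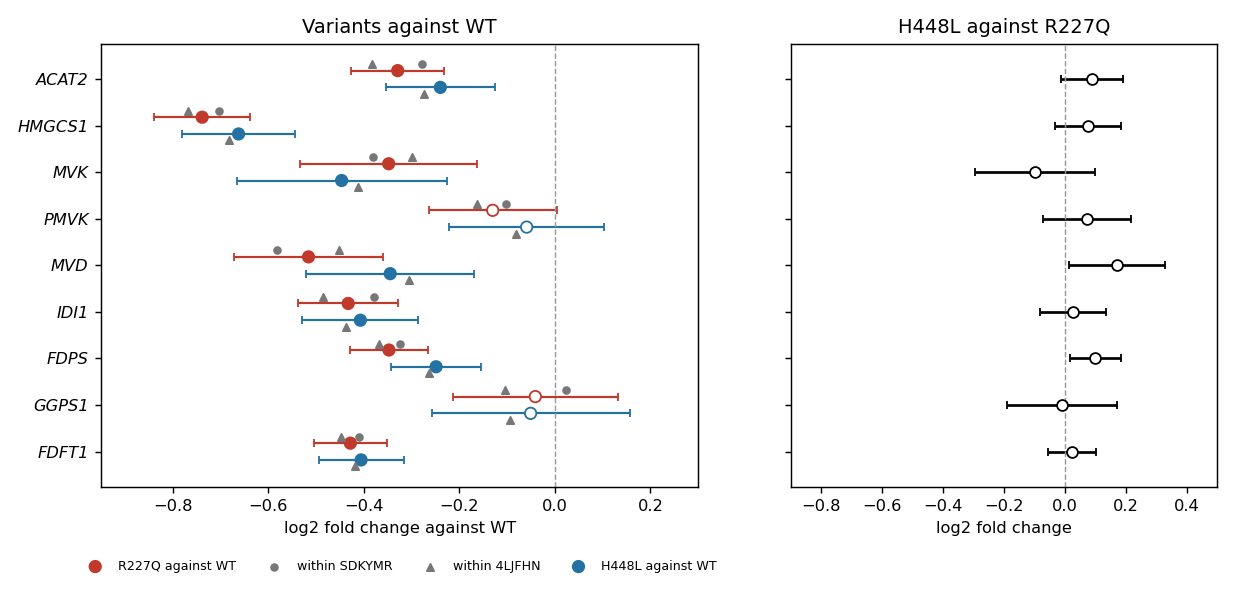
Log2 fold change of each member with 95% confidence intervals from the edgeR fit with the submission as a term, for R227Q and H448L against WT (left) and H448L against R227Q (right). Filled points passed at an adjusted p under 0.05, and small grey marks are the differences within 1 submission. HMGCS1 lies farthest below 0 in both variants, and the intervals of PMVK and GGPS1 include 0.

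The 2 variants were then compared with each other. None of the 9 members passed (0 by edgeR, DESeq2 and limma-voom), where 0.207% of all genes were called in either direction, 0.124% lower and 0.0828% higher. At an unadjusted p under 0.05, edgeR had 947 of all 16908 genes lower and 891 higher. Among the members 2 were higher in H448L at that threshold, MVD (log2 0.17, 95% confidence interval 0.01 to 0.33, edgeR adjusted p = 0.41) and FDPS (0.10, 0.02 to 0.18, 0.34). These are also the 2 members whose CPM did not overlap between H448L and R227Q, against 8.38% of all genes. For HMGCS1 the difference was 0.08 (-0.03 to 0.18) and for ACAT2 0.09 (-0.01 to 0.19). For FDFT1 it was 0.02 (-0.06 to 0.10), for IDI1 0.03 (-0.08 to 0.13) and for PMVK 0.07 (-0.07 to 0.21). MVK had the widest interval of those that fell, from -0.29 to 0.10 around -0.10. GGPS1 stood at -0.01 (-0.19 to 0.17). The intervals still allow differences of this size, and a p that misses the threshold does not show that the variants act alike.

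R227Q and WT were present in both submissions, so their contrast could be read in each. Within SDKYMR, the log2 difference of R227Q replicate 1 from the mean of WT replicates 1 and 2 was -0.70 for HMGCS1, -0.58 for MVD, -0.41 for FDFT1, -0.38 for IDI1 and for MVK, -0.32 for FDPS and -0.28 for ACAT2. Within 4LJFHN, R227Q replicates 2 and 3 differed from WT replicate 3 by -0.77, -0.45, -0.45, -0.49, -0.30, -0.37 and -0.38 in the same order. All 7 were lower in both submissions, as was PMVK, which was not called (-0.10 and -0.16). The 7 were called by a fit to these same libraries, so the shared sign is a description and no separate support. The interaction of genotype and submission was called for 0 members (0 at an unadjusted p under 0.05, and 0 by DESeq2 and limma-voom), as for 0% of all 16908 genes, so nothing about the members is read from it. It ran from -0.12 for GGPS1 to 0.14 for MVD. Over all genes 300 were lower and 436 higher at an unadjusted p under 0.05 by edgeR. H448L could be compared with a WT library of its own submission only through WT replicate 3, and there HMGCS1 stood at -0.68, IDI1 at -0.44, FDFT1 at -0.42, MVK at -0.41, MVD at -0.31, ACAT2 at -0.27 and FDPS at -0.26.

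Between the submissions 5 of 9 members were called at a given genotype, where 43.8% of all genes were called in either direction, 23% lower and 20.8% higher. With so large a share over all genes, nothing particular to the members is read from this count. In 4LJFHN against SDKYMR, PMVK was lower by a log2 difference of -0.43 (edgeR adjusted p = 3.3e-06), FDFT1 by -0.25 (2.3e-06) and ACAT2 by -0.25 (9e-05). MVD was higher by 0.30 (0.0019) and FDPS by 0.11 (0.029). HMGCS1, which differed most between genotypes, stood at -0.09 (0.14) and IDI1 at 0.01 (0.85). The difference between submissions in PMVK was larger than either of its differences from WT. What the submissions differed in beyond their name was not tested.

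Levels were compared between genes per length, here as CPM per kilobase of exonic sequence in GENCODE v29. That length joins all annotated exons of a gene, and reads were assumed to cover transcripts evenly, which was not tested. Only 57342 of the 78894 genes had a model in that annotation, so it differs from the one behind the counts. In WT, FDFT1 stood at 72.5 ± 5.18 (SD, n = 3) and FDPS at 65.3 ± 4.84, followed by PMVK at 32.5 ± 4.48, ACAT2 at 30.2 ± 1.92, HMGCS1 at 24.9 ± 0.594 and IDI1 at 23.1 ± 1.34. MVD at 6.77 ± 0.998, GGPS1 at 6.11 ± 0.617 and MVK at 3.73 ± 0.524 were the lowest. The neighbours FDFT1 and FDPS, PMVK and ACAT2, HMGCS1 and IDI1, and MVD and GGPS1 differed by less than the sum of their SDs. In R227Q the order at the top turned, with FDPS at 53.6 and FDFT1 at 51.9, and in H448L FDPS stood at 59.9 and FDFT1 at 50.6. That order followed the submission as well: FDPS was also the higher in WT replicate 3, at 70.9 against 66.7, and FDFT1 in WT replicate 1, at 74.6 against 62.4. HMGCS1 stood at 14.9 in R227Q and 15.7 in H448L, below IDI1 at 17.5 and 18.2, whereas its WT mean was above that of IDI1.

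The rest of the sterol pathway was described from lists of genes with a shared role, with no list test. Over all genes tested, 9.91% were called lower and 7.5% higher in R227Q, and 4.99% and 2.97% in H448L. Of the 11 enzymes from squalene to cholesterol, 10 fell and 1 rose in R227Q (median log2 fold change -0.37), and 8 fell and 1 rose in H448L (-0.32), both by edgeR. SQLE, the squalene epoxidase that takes the product of FDFT1 onward, stood at 118, 120 and 132 CPM in WT, at 78.3, 81.9 and 81.6 in R227Q and at 94.1, 94.3 and 94.0 in H448L. It fell by 0.66 on the log2 scale in R227Q (edgeR adjusted p = 2.5e-11) and by 0.48 in H448L (6.4e-07), and its H448L libraries lay between WT and R227Q. MSMO1, the methylsterol monooxygenase, fell by 0.56 (1.8e-09) and 0.45 (2.4e-06), and NSDHL, a sterol dehydrogenase, by 0.49 (2.5e-06) and 0.50 (5.5e-05). EBP, a sterol isomerase, fell by 0.47 (4.1e-09) and 0.32 (8.5e-05), and its H448L call was lost without WT replicate 3 (-0.29, 0.057). TM7SF2, which encodes a sterol reductase, was the 1 exception and rose by 0.18 (0.041) and 0.24 (0.048). Its R227Q call was lost when any 1 WT or R227Q library was left out, and its H448L call without any 1 of these or without H448L replicate 1 or 3. Without WT replicate 3 the fall in H448L was called for 3 of the 11 genes.

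Of 12 tested genes of SREBP control and sterol uptake, 6 fell and 0 rose in each variant, with medians of -0.20 in R227Q and -0.23 in H448L. The shares called over all genes were 9.91% lower and 7.5% higher in R227Q, and 4.99% and 2.97% in H448L. By edgeR at an unadjusted p under 0.05, 1 was higher in R227Q and 0 in H448L, against 2347 and 1665 of all 16908 genes. INSIG1, which holds the SREBP escort protein in the endoplasmic reticulum, stood at 63.6, 65.5 and 74.4 CPM in WT, at 43.3, 53.7 and 51.3 in R227Q and at 60.6, 58.3 and 52.8 in H448L, below WT in every variant library. It fell by 0.55 on the log2 scale in R227Q (edgeR adjusted p = 6e-08) and by 0.42 in H448L (0.00011). SREBF2, which encodes SREBP-2, fell by 0.30 in R227Q (0.00017) and stood at -0.19 in H448L (0.072). SCAP, the escort protein, fell by 0.21 (0.0018) and 0.31 (4e-04), and MBTPS2, a protease that releases SREBP, by 0.27 (0.0024) and 0.26 (0.022). The SCAP calls were lost without WT replicate 3 (-0.18 and -0.27). The MBTPS2 call in R227Q was lost without R227Q replicate 1, and that in H448L without WT replicate 3, R227Q replicate 1 or H448L replicate 3. Of the 12 genes, 3 were called lower in R227Q without R227Q replicate 1, and 2 in H448L without WT replicate 3 or without R227Q replicate 1.

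Genes on either side of the pathway were described in the same way. Their counts stand beside 9.91% of all genes called lower and 7.5% higher in R227Q, and 4.99% and 2.97% in H448L. Of 7 tested acetyl-CoA suppliers and paralogs of members, 1 fell in R227Q and 0 passed in H448L (0 at an unadjusted p under 0.05 by edgeR, and 0 by DESeq2 and limma-voom), with medians of 0.06 and -0.02. That gene was SLC25A1, the mitochondrial citrate carrier, at -0.16 (edgeR adjusted p = 0.035), and it was not called without WT replicate 2, WT replicate 3, R227Q replicate 1 or R227Q replicate 2. ACAT1, the mitochondrial thiolase that is the paralog of ACAT2, stood at 0.07 in R227Q (0.32) and -0.02 in H448L (0.87). AACS, acetoacetyl-CoA synthetase, stood at 0.19 in both (0.097 and 0.27) and HADHB, a subunit of the mitochondrial trifunctional protein, at 0.08 (0.40) and 0.09 (0.49).

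Of 20 users of farnesyl and geranylgeranyl diphosphate, 4 fell and 0 rose in R227Q (0 higher at an unadjusted p under 0.05 by edgeR), and 2 fell and 1 rose in H448L, with medians of -0.07 and -0.03. The shares over all genes were 9.91% lower and 7.5% higher in R227Q, and 4.99% and 2.97% in H448L. No list test was run, so these small counts are a description. Without WT replicate 3, 1 was called lower in R227Q, and 0 in either direction in H448L. COQ2, which attaches the isoprenoid tail of coenzyme Q, fell by 0.39 on the log2 scale in R227Q (edgeR adjusted p = 3.3e-05) and 0.31 in H448L (0.0049). The H448L call of COQ2 was lost without WT replicate 3 (-0.30). NUS1, a subunit of the dolichol-forming transferase, fell by 0.26 in R227Q (0.0015), a call lost without WT replicate 3 (-0.18), and stood at -0.17 in H448L (0.096). FNTB, the farnesyltransferase beta subunit, fell by 0.37 in R227Q (0.018), lost without WT replicate 3, R227Q replicate 1 or R227Q replicate 2, and stood at -0.25 in H448L (0.29). The gene that rose in H448L was COX10, which farnesylates haem, at 0.49 (0.042), named after its value was seen. That call was lost without WT replicate 3 (0.10), R227Q replicate 3, H448L replicate 1 or H448L replicate 3.

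Of 6 tested liver X receptors and targets, 1 fell and 1 rose in R227Q and 1 fell in H448L, with medians of 0.06 and 0.04. With 9.91% of all genes called lower and 7.5% higher in R227Q, and 4.99% and 2.97% in H448L, nothing about the list is read from these counts. SCD, the stearoyl-CoA desaturase, which SREBP factors are also known to drive, fell by 0.27 (edgeR adjusted p = 2.3e-05) and 0.23 (0.0026), the second call being lost without WT replicate 3 (-0.14). NR1H3, which encodes LXR alpha, rose by 0.34 in R227Q (0.012), a call lost without WT replicate 3 or R227Q replicate 1, and stood at 0.34 in H448L (0.061). SREBF1, which encodes SREBP-1, stood at 0.14 (0.094) and 0.04 (0.79), and MYLIP, the ligase that degrades the LDL receptor, at -0.17 (0.20) and 0.13 (0.51). Between H448L and R227Q, 0 genes of the 5 lists passed by edgeR, DESeq2 or limma-voom, where edgeR called 0.207% of all genes. At an unadjusted p under 0.05 edgeR had 947 of all 16908 genes lower and 891 higher. It had 3 higher among the enzymes from squalene to cholesterol and 3 lower and 1 higher in SREBP control and uptake. In the users list 3 were higher, in the liver X receptor list 1, and among the acetyl-CoA suppliers 0.

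**Figure D4:**
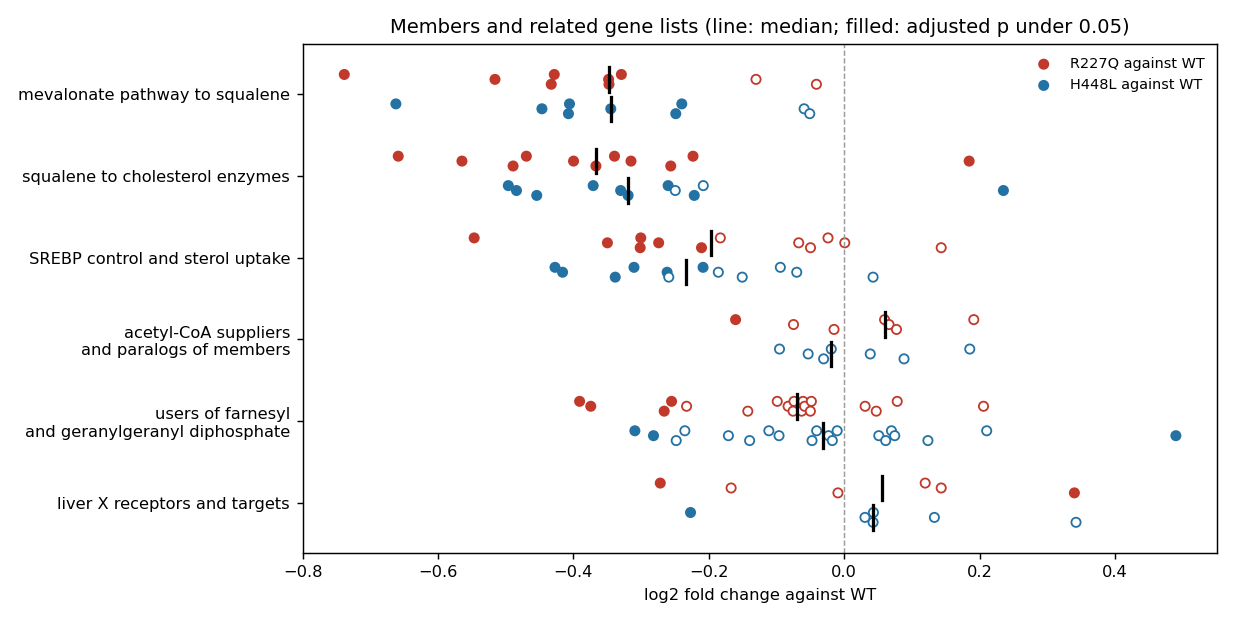
Log2 fold change of each tested gene of the members and the 5 lists in R227Q and H448L against WT, 1 point per gene, filled where the edgeR adjusted p was under 0.05, with the list's median as a line. The members and the enzymes from squalene to cholesterol lie mostly below 0, with medians from -0.37 to -0.32, and the acetyl-CoA suppliers lie around 0.

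Across the 9 libraries, with the difference between submissions removed and the groups kept, most members followed the mean of the other 8. As a description over 9 libraries that share the genotype difference, Pearson's r was 0.98 for FDFT1, 0.97 for FDPS, 0.96 for ACAT2 and for HMGCS1, 0.95 for MVD, 0.91 for IDI1 and 0.86 for MVK. It was 0.69 for PMVK and 0.33 for GGPS1. Among 11104 genes with a mean of at least 5 CPM, 190 had an r of 0.95 or more with the mean member profile. The 8 nearest named genes were CCNA2, a cyclin (0.99), GTPBP6, a GTP-binding protein (0.99), ELOVL6, a fatty acid elongase (0.99), COQ2 (0.99), USP9X, a deubiquitinase (0.99), MAPKAPK3, a kinase (0.99), RNF7, a ubiquitin ligase subunit (0.99), and CAV2, a caveolin (0.99). Their log2 fold changes ran from -0.24 for CCNA2 to -0.45 for GTPBP6 in R227Q and from -0.19 for USP9X to -0.42 for GTPBP6 in H448L.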

How the data were processed

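Poly-A mRNA of 9 Hap1 libraries was sequenced by a commercial service, per the labels' protocols, and, per the submitters' processing notes, GRCh38 was the genome build. The aligner, the counting program and the strand setting were not given in the sources used here. The authors deposited estimated counts per gene, partly fractional, in 1 table per submission, and CPM beside them, per the file headers. Counts were rounded, and 92 spike-in entries were left out. Genes were kept by filterByExpr and fitted with edgeR 4.0.16 (R 4.3.3) quasi-likelihood models, with TMM factors from 0.969 to 1.02, genotype and submission as terms, 5 residual degrees of freedom and a prior count of 2. Tests were two-sided, at 0.05 after Benjamini-Hochberg adjustment, and the common coefficient of biological variation came to 2.96%. Within-submission values are differences of means of log2 CPM. No library was a copy of another. Alternatives were DESeq2 1.42.0, limma-voom 3.58.1, other scalings and filters, no submission term, 4LJFHN alone, a replicate block and leaving out each library. The scripts' fits were tested on simulated data.

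The members and lists, and the motifs, were chosen with earlier results of these data known. The named genes were all 9 members, SARS2, the 4 genes of each list with the smallest p in either variant, and the 8 nearest named genes by likeness; exceptions are marked, and 1 gene that the rule names is not reported here. ACAT2 and FDFT1 had no promoter entry.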

Additional observations from a re-analysis of the deposited data

How the results depend on the processing

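Of the members, 7 were lower in R227Q and 7 in H448L, 0 were higher, and 0 differed between the variants. Without the submission term 4 and 3 members were called lower. Leaving out 1 library gave 6 to 7 in R227Q and 2 to 7 in H448L, the 2 being HMGCS1 (-0.62) and FDFT1 (-0.38) without WT replicate 3. The 4LJFHN libraries alone gave 6 and 6, where WT is 1 library that is assumed to vary like the variant groups. The counts of 0 members stayed at 0 in all 19 alternatives. Calls lost without the submission term were ACAT2, MVK and MVD in R227Q (-0.41, -0.31 and -0.41, adjusted p = 0.068, 0.17 and 0.12) and also FDPS in H448L (-0.18, 0.14). Of the genes named from the 5 lists, the R227Q and H448L calls of SQLE and the R227Q calls of EBP and INSIG1 held without that term. The enzymes from squalene to cholesterol then had 3 lower in R227Q and 1 in H448L, and SREBP control 1 and 0. Counts over all genes moved from 1676 lower and 1268 higher in R227Q to 147 and 165 without the submission term, 1040 and 506 by DESeq2, 655 and 483 in 4LJFHN alone, 689 and 404 without WT replicate 3 and 744 and 534 without R227Q replicate 1. Upper-quartile factors turned that split to 1335 lower and 1565 higher. In H448L, 844 and 503 became 71 and 76 without the term and 167 and 86 without WT replicate 3.

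Whether replicate numbers pair the libraries could not be told from these data. Deviations of same-numbered WT and R227Q libraries from their group means correlated at 0.66, -0.56 and 0.66. These values followed the submission, which would hide a pairing. With the replicate block beside the submission term, 7 members were lower in R227Q and 5 in H448L, where MVK (-0.35, 0.078) and MVD (-0.29, 0.072) were no longer called. The block turned GGPS1 to 0.008 in R227Q, 0.041 in H448L and 0.033 between the variants, and FNTB to 0.004 in H448L.

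Signs also turned as follows, and the cause was not tested. Between the variants GGPS1 was 0.002 with library totals only and 0.011 in 4LJFHN alone, and PMVK -0.085 and FDFT1 -0.066 without the submission term. Without 1 library GGPS1 ranged from -0.114 to 0.017 in R227Q, from -0.100 to 0.026 in H448L and from -0.062 to 0.036 between the variants, IDI1 from -0.036 to 0.061 between the variants and PMVK from -0.107 to 0.001 in H448L. In H448L against WT without the submission term, AACS was -0.017, ACAT1 0.298, NUS1 0.045, SREBF1 -0.031 and MYLIP -0.276, and ACAT1 was 0.003 with library totals only. Leaving out 1 library gave -0.061 to 0.003 for ACAT1 and -0.048 to 0.095 for SREBF1, and -0.086 to 0.570 for COX10 in R227Q. Depth limits MVK most, at 202 counts or more in a library.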
